A study of Mus musculus with 30 samples.

Results

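The let-7 and miR-98 family is a set of microRNA precursors whose mature strands begin with nearly the same bases. The 10 members described here were chosen by gene symbol out of 2194 named features in the small RNA tables of 5 mouse organs: Mirlet7a-1, Mirlet7a-2, Mirlet7b, Mirlet7c-1, Mirlet7c-2, Mirlet7d, Mirlet7f-2, Mirlet7g, Mirlet7i and Mir98. Each of the 10 has a fold change in all 5 organs. The set was proposed with the sign of its fold changes known, so those fold changes are given as a description and nothing is inferred from them. A further pair of family symbols, Mirlet7e and Mirlet7f-1, is listed at 0 in every organ.

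The study compared male mice 4 months old that were deficient in Ftsj1 (labelled Ftsj1_DF, 3 mice) with wild-type mice (WT, 3 mice), in whole brain, heart, kidney, liver and spleen. Ftsj1 encodes an enzyme that adds 2'-O-methyl groups to the anticodon loop of certain tRNAs, and the study asked how its loss alters microRNAs. Each organ gave 6 libraries, 30 in all. The same 6 mice, 4 of them brothers and the other 2 brothers, gave every organ, so the 5 organ comparisons share animals but no libraries. The labels name neither the allele nor the strain. Heart, kidney and liver each hold 1 wild-type library of batch 2, which the labels describe as samples redone for low sequencing depth or because they were missing. Those libraries cannot be picked out in the tables, so no value was computed without them.

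A let-7 gene is transcribed as a long primary transcript, cut to a hairpin by Drosha and to a duplex by Dicer, and 1 strand of the duplex is loaded into an Argonaute protein. Bases 2 to 8 of that strand, the seed, pair with target mRNAs, among them those of Ras and Hmga2. LIN28 proteins block the maturation of let-7 in embryonic cells, and let-7 becomes abundant as tissues differentiate.

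The 10 precursors give 8 different mature 5p strands. They are printed 5′ to 3′, from RefSeq on GRCm38.p6, with the seed in capitals, to show what the members share.
let-7a (Mirlet7a-1 and Mirlet7a-2): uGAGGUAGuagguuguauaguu
let-7b (Mirlet7b): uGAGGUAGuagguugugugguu
let-7c (Mirlet7c-1 and Mirlet7c-2): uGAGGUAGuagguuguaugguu
let-7d (Mirlet7d): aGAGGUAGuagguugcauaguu
let-7f (Mirlet7f-2, and Mirlet7f-1 at 0): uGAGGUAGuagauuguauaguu
let-7g (Mirlet7g): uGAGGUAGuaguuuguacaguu
let-7i (Mirlet7i): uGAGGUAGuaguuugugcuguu
miR-98 (Mir98): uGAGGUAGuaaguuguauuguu
All 8 share 1 seed, so members differ in the bases after it. The table of RefSeq mature sequences holds 3 more strands with this seed.
let-7e (Mirlet7e, at 0): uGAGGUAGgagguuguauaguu
let-7k (Mir7k): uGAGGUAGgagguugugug
miR-1961 (Mir1961): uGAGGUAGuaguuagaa
A strand named let-7j (Mir7j) differs from that seed at its last base.
let-7j (Mir7j): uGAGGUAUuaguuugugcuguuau

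The same strands are printed again with capitals at each base that differs from let-7a, because the kidney genotype contrasts, set out further on, are described by these bases. A substitution is written as the base of let-7a, its position counted from 1 at the 5′ end, and the base of the other strand.
let-7b: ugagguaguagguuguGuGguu
let-7c: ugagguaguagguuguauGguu
let-7d: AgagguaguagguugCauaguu
let-7f: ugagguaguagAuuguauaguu
let-7g: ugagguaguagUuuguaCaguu
let-7i: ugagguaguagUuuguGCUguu
miR-98: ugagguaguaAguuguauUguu
let-7k: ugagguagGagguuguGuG
Let-7b carries A17G and A19G, let-7c carries A19G, and let-7d carries U1A and U16C. Let-7f carries G12A, let-7g carries G12U and U18C, let-7i carries G12U, A17G, U18C and A19U, and miR-98 carries G11A and A19U. Let-7a, b, c and d thus keep G at both positions 11 and 12, and let-7f, let-7g, let-7i and miR-98 lack 1 of them. G and C make up 45.5% of let-7b, 40.9% of let-7c, let-7d and let-7i, 36.4% of let-7a and let-7g, and 31.8% of let-7f and miR-98.

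The members sit at 7 loci of the GENCODE M21 annotation (GRCm38), and no coordinates are given because the authors' tables are on GRCm39. Mirlet7a-1 and Mirlet7d lie with Mirlet7f-1 in exons of the lincRNA 6720427I07Rik on chromosome 13. Mirlet7c-2 and Mirlet7b lie in exons of the noncoding transcript Lncppara on chromosome 15. Mirlet7a-2 lies between Mir100 and Mir125b-1 in an intron of the noncoding gene 3110039I08Rik on chromosome 9. Mirlet7c-1 lies between Mir99a and Mir125b-2 in an intron of the noncoding host gene Mir99ahg on chromosome 16. Mirlet7f-2 and Mir98 lie in an intron of Huwe1, which encodes a ubiquitin ligase, on chromosome X. Mirlet7g lies in an intron of Wdr82 on chromosome 9, and Mirlet7i in an exon of the transcribed pseudogene D630033A02Rik on chromosome 10. All 10 have the strand of these hosts.

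The organ labels were checked against microRNAs that mark each organ. The summed level of each organ's list was highest in that organ, from 1.47% of the total for the spleen list to 30.4% for the liver list, although only 3 of the 6 kidney markers were highest there. Mir9-1, Mir1a-2 and Mir142, defining microRNAs of brain, heart and blood cells, stood at 0 in every organ. Pancreas microRNAs (Mir216a, Mir216b, Mir217 and Mir375) made up at most 0.322%, in spleen. The deposited mean of a feature is its count divided by a library's size factor (its relative depth) and averaged over an organ's 6 libraries, so the tables hold no value of a member in a single library. Summed means ran from 8511372 in heart to 21787131 in kidney. Neither labels nor tables state the numerator genotype, so fold changes carry a sign and no named direction. Positive side means the 3 libraries that raise a fold change and negative side the 3 that lower it. Setting signs of different organs together takes for granted that the 5 tables share a numerator. The Ftsj1 mRNA is not measured in small RNA, so the genotype labels have no check here.

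The family made up 19.3% of all normalized counts in brain, 13.1% in heart, 12.4% in spleen, 10.3% in kidney and 7.03% in liver. Brain thus held 2.75 times the share of liver. Mirlet7g was the most abundant member in all 5 organs, with 40.2% of the family in liver, 34.3% in spleen, 33.1% in kidney, 29.5% in brain and 24.5% in heart. Its rank among all features was 3 in spleen, 4 in brain, 7 in heart and liver, and 8 in kidney. Mir98 was the least abundant member in 4 organs, at 0.361% of the total in brain, 0.149% in heart, 0.198% in kidney and 0.101% in liver. In spleen that place went to Mirlet7b, at 0.161%. These shares describe the organs and were not tested, because the tables were normalized separately and give no spread over libraries for a level. In bulk tissue a difference in cell makeup and a difference in RNA per cell cannot be told apart.

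**Figure D1:**
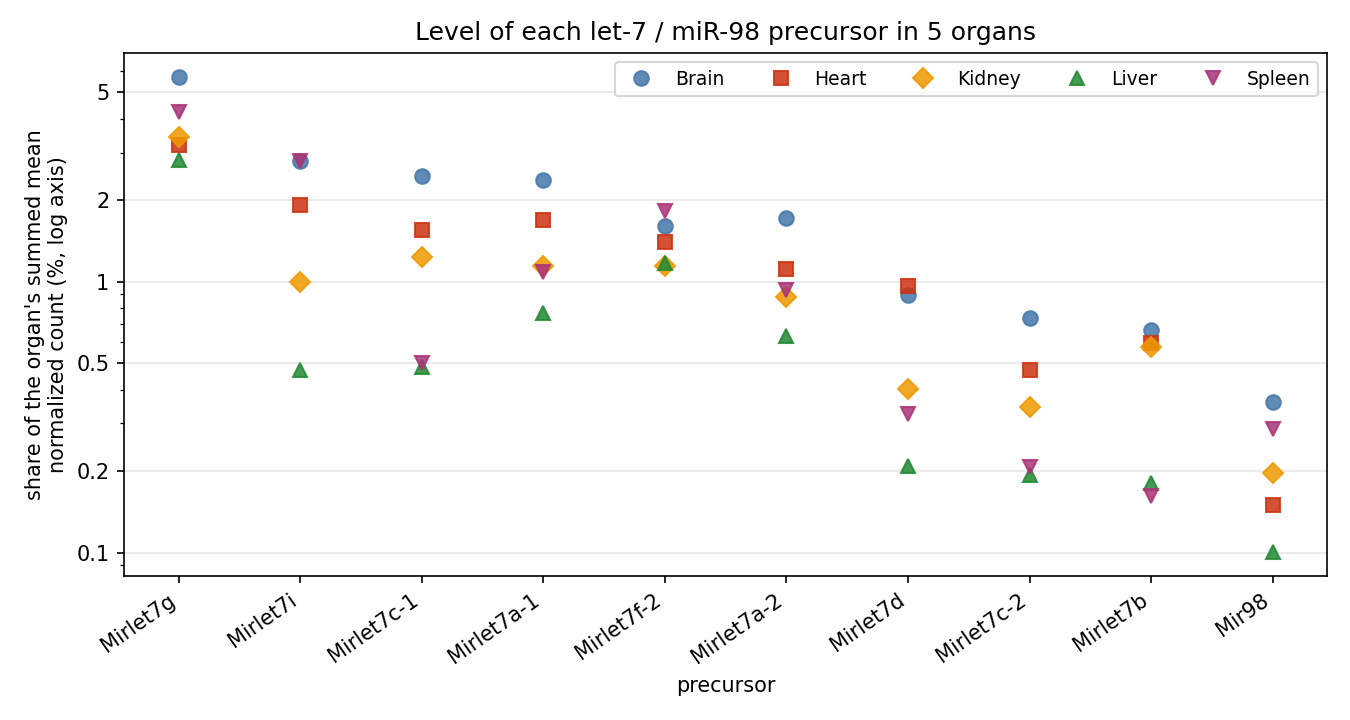
Share of the organ's summed mean normalized count (percent, log axis) held by each of the 10 precursors, ordered by their level in brain except for Mirlet7f-2 and Mirlet7a-2, in brain, heart, kidney, liver and spleen (1 point per organ, the mean of 6 libraries). Mirlet7g lies highest in every organ, while Mirlet7i spans 0.474% in liver to 2.80% in brain and Mirlet7f-2 only 1.15% to 1.82%.

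The members did not follow 1 order over the organs. Of the 10, 8 had their highest share in brain and 8 their lowest in liver. Mirlet7i ranged most widely, from 2.80% in brain and 2.79% in spleen to 0.474% in liver, a ratio of 5.91. Mirlet7c-1 came next, from 2.47% in brain to 0.484% in liver, with 0.499% in spleen. Mirlet7f-2 was the most even, with 1.82% in spleen, 1.60% in brain, 1.41% in heart, 1.17% in liver and 1.15% in kidney. Mirlet7b, at 0.665% in brain, 0.594% in heart and 0.575% in kidney, was lower in liver (0.182%) and spleen (0.161%). Mirlet7d was highest in heart, at 0.962%, beside 0.894% in brain.

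A spread between libraries can be read from the deposited standard errors if the model held genotype alone, since abundant features are then limited by their fitted dispersion. On that reading the members' coefficient of variation between libraries had a median of 44.8% in kidney, 41.3% in liver, 28.7% in brain, 25.3% in heart and 20.6% in spleen. Of the 40 steps between neighbouring organs in the members' orders, 21 were smaller than this spread. For Mirlet7f-2 that was so of all 4 steps, for Mirlet7i of the step from brain to spleen alone, and for Mir98 of none.

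The copies of a mature strand differed in level. Let-7a from chromosome 13 (Mirlet7a-1) had 1.38 times the mean of the chromosome 9 copy (Mirlet7a-2) in brain, 1.51 times in heart, 1.30 times in kidney, 1.22 times in liver and 1.17 times in spleen. Let-7c from chromosome 16 (Mirlet7c-1) had 3.35 times the mean of the chromosome 15 copy (Mirlet7c-2) in brain, 3.28 times in heart, 3.58 times in kidney, 2.51 times in liver and 2.42 times in spleen. The 4 hairpins follow, with the 5p strand in capitals, because the reads of copies of the same strand can be told apart only outside it.
Mirlet7a-1: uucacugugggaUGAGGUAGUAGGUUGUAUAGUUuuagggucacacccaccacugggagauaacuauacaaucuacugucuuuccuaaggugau
Mirlet7a-2: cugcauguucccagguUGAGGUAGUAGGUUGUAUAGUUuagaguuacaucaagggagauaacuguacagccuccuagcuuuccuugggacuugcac
Mirlet7c-1: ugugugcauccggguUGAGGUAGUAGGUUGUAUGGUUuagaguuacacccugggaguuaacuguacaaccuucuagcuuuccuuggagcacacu
Mirlet7c-2: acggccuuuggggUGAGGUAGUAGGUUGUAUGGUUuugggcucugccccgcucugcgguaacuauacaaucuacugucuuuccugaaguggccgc
The 3p strands differ between the copies of let-7a and between the copies of let-7c, but Mirlet7a-1 and Mirlet7c-2 have the same one.
3p strand of Mirlet7a-1 and of Mirlet7c-2: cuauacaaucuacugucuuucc
3p strand of Mirlet7a-2: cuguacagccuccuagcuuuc
3p strand of Mirlet7c-1: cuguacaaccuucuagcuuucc
How reads that match several hairpins were counted is not given in the sources used here, so the split of a mature strand between its copies is uncertain.

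Mirlet7f-1 and Mirlet7e stood at 0 in all 5 tables, although Mirlet7f-1 encodes the same mature strand as Mirlet7f-2 and its neighbours Mirlet7a-1 and Mirlet7d were abundant. Of the 12 family precursors these alone overlap a second microRNA gene on the opposite strand in GENCODE M21, Gm24111 at Mirlet7f-1 and Gm25927 at Mirlet7e. Over all microRNA symbols of the tables found in that annotation, 35 of 55 precursors with such an overlap were at 0 in every organ (63.6%), against 98 of 1119 without one (8.76%). Neither Gm24111 nor Gm25927 is among the named features of the authors' deposited tables. The part of the opposite-strand overlap in the 2 values at 0 was not tested, and the authors' annotation is not given in the sources used here. The family shares therefore leave out let-7e and any let-7f read from Mirlet7f-1.

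The genotype contrast was negative for 10 of 10 members in brain, heart and kidney, 9 of 10 in liver and 7 of 10 in spleen. Among all features with a mean of at least 10, the share with a negative sign was 51.9% in kidney, 51.8% in heart, 50.2% in spleen, 50.1% in brain and 49.1% in liver. With SE for standard error from here on, the members' median log2 fold change was -1.31 in kidney, -0.65 in heart, -0.59 in brain, -0.22 in liver and -0.04 in spleen, beside medians over all those features of -0.03, -0.01, 0.00, 0.01 and 0.00. The kidney value depends on how members are combined: a mean weighted by inverse squared SE was -0.71, and the median over 1 value per mature sequence was -0.95. No member passed an adjusted p of 0.05 by DESeq2 in the authors' deposited tables. Over all features the share that passed was 0% in brain, kidney and spleen, 1.13% in heart and 0.229% in liver. Below an unadjusted p of 0.05 the authors' deposited tables list 5 members in kidney, 5 in heart and 2 in brain, all negative, where 3.33%, 1.99% and 1.07% of all tested features were negative at that threshold and 1.17%, 3.34% and 1.17% positive. Spleen had 1 such member, which was positive, where 2.65% of all features were positive and 0.828% negative, and liver had 0, where 2.18% of all features were negative and 1.72% positive. Copies encode the same mature strand and neighbours lie in the same host transcript, so the members cannot be taken as independent of each other.

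**Figure D2:**
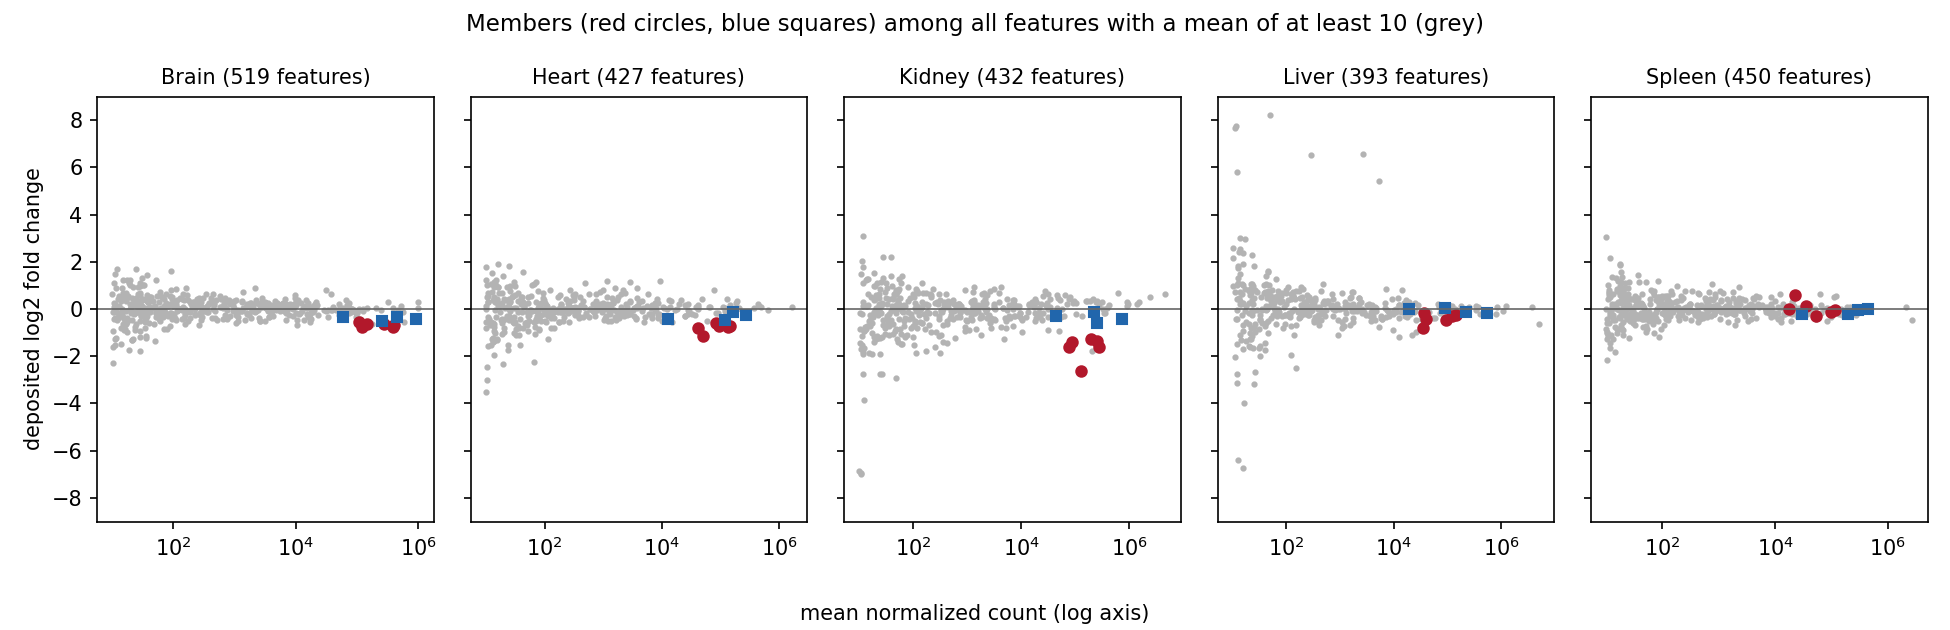
Deposited log2 fold change between the genotypes against the mean normalized count (log axis) for every feature with a mean of at least 10 in each organ (grey points), with let-7a, b, c and d precursors as red circles and let-7f, g, i and miR-98 precursors as blue squares. In kidney the red circles lie between -2.62 and -1.28, below most features of like abundance, and in spleen the members lie between -0.29 and 0.61.

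Beside features of like abundance, the members had some of the lowest values, except in spleen. Of 87 kidney features whose mean reached 10000, the family held 6 of the 10 lowest log2 fold changes. The other 77 had a median of 0.19, and 32.5% of them were negative. In heart 6 of the 10 lowest of 62 such features were members, in brain 5 of the 10 lowest of 113, in liver 3 of the 10 lowest of 70 and in spleen 0 of the 10 lowest of 78. Outside the family, 44.2% of such features were negative in heart, 61.2% in brain, 61.7% in liver and 67.6% in spleen. The spleen share lies near that of the members, of which 7 of 10 were negative there. The lowest feature outside the family was Mir125a in kidney, at -1.77, and in heart, at -0.81, in the authors' deposited tables.

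In kidney the members lay in separate sets by mature sequence, a split noticed after the values were seen and given with no test. The 6 precursors with G at positions 11 and 12 (let-7a, b, c and d) had log2 fold changes from -2.62 to -1.28, with a median of -1.51. The other 4 (let-7f, g, i and miR-98) ran from -0.60 to -0.13, with a median of -0.35, so the sets did not overlap and lay 0.68 apart at their nearest. That nearest pair was Mirlet7a-2 (SE 0.53) and Mirlet7f-2 (SE 0.40), so the gap is not large beside their errors. Mirlet7b was lowest, at -2.62 with a standard error of 1.16, and the authors' deposited table lists it without a p-value. Its mean of 125178 normalized counts corresponds to about 215341 (negative side) and 35015 (positive side), a 6.15-fold difference, if the deposited fold change is the ratio of the sides' means. Its standard error corresponds to a coefficient of variation of 98.6%, the largest of all members and organs. Whether 1 library sets the kidney value of Mirlet7b cannot be read from its mean. Without Mirlet7b its set ran from -1.63 to -1.28.

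The let-7c copies came next in kidney. Mirlet7c-2 stood at -1.63 (SE 0.57) and Mirlet7c-1 at -1.62 (SE 0.57), both with an adjusted p of 0.622 by DESeq2, in the authors' deposited table. For Mirlet7c-1 this corresponds to normalized counts of 406102 (negative side) and 132477 (positive side). Mirlet7d, at -1.40 (SE 0.55), and Mirlet7a-1, at -1.34 (SE 0.53), both have a DESeq2 adjusted p of 0.685 according to the authors' deposited table. Mirlet7a-2 stood at -1.28 (SE 0.53; DESeq2 adjusted p 0.735) in the authors' deposited table. The 2 copies of let-7a differed by 0.05 and those of let-7c by 0.01. The copies lie on different chromosomes but encode the same mature strand. How reads of a shared strand were assigned is not given in the sources used here. Whether the separate loci had like values was therefore not tested.

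The kidney members of the other set stood nearer 0. Mirlet7f-2, which differs from let-7a by G12A alone, had a log2 fold change of -0.60 (SE 0.40) in the authors' deposited table. Mirlet7g stood at -0.41 (SE 0.34) and Mirlet7i at -0.13 (SE 0.30) in the authors' deposited table. Mir98 had -0.30 (SE 0.33) there, with an adjusted p of 0.975 by DESeq2 in the authors' deposited table. Mirlet7g, the most abundant member, thus had about 848940 normalized counts (negative side) and 638823 (positive side), and the summed family 2912436 and 1587696, a ratio of 1.83.

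**Figure D3:**
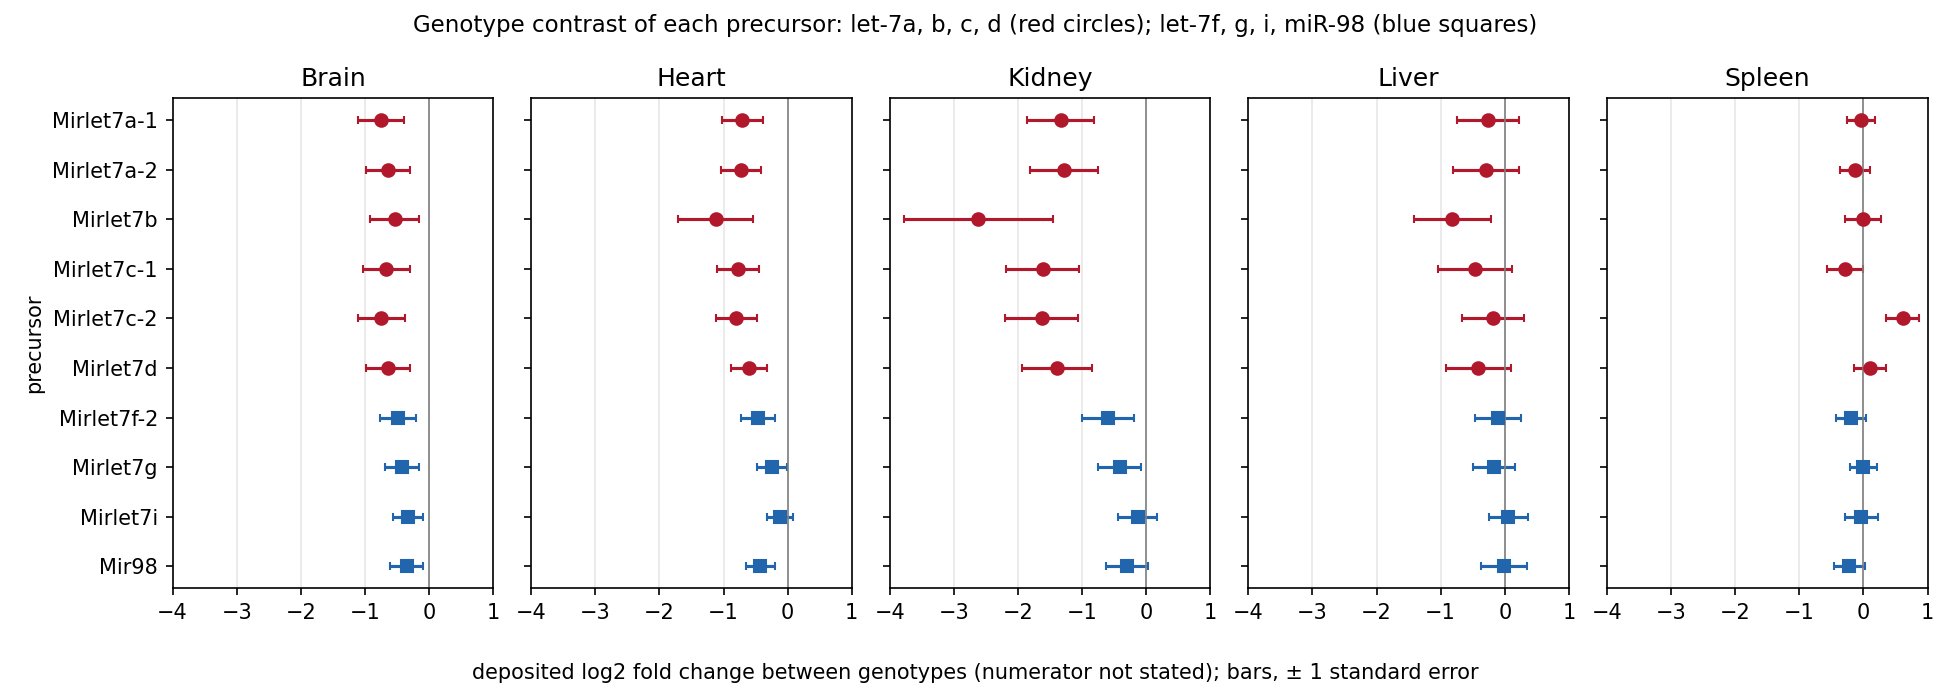
Deposited log2 fold change of each precursor between the genotypes (x axis, numerator not stated) in the 5 organs, with bars of 1 standard error, for let-7a, b, c and d (red circles) and let-7f, g, i and miR-98 (blue squares). The red circles lie left of the blue squares in brain, heart, kidney and liver, by 0.05, 0.14, 0.68 and 0.01 at the nearest pair, and the sets overlap in spleen.

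In heart the same sets lay apart by less, 0.14 at their nearest, which is smaller than any member's standard error there. The order within the sets was not that of kidney. The 6 precursors with G at positions 11 and 12 ran from -1.12 to -0.60 and the other 4 from -0.46 to -0.13. Mirlet7b was again lowest, at -1.12 with a standard error of 0.59 (DESeq2 adjusted p 0.443), in the authors' deposited table. Mirlet7c-2 stood at -0.80 (SE 0.32), with the smallest adjusted p of any member and organ, 0.246 by DESeq2, in the authors' deposited table. Mirlet7i was nearest 0, at -0.13 (SE 0.20), in the authors' deposited table. The summed family corresponds to about 1302404 normalized counts (negative side) and 922394 (positive side).

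In brain, where let-7 is most abundant, the members lay closer together. The 6 precursors ran from -0.75 for Mirlet7a-1 (SE 0.36) to -0.54 for Mirlet7b (SE 0.38), and the other 4 from -0.49 for Mirlet7f-2 (SE 0.28) to -0.33 for Mirlet7i (SE 0.24), in the authors' deposited table. The gap of 0.05 between the sets is smaller than any member's standard error in brain. Every member had an adjusted p of 0.989 by DESeq2 in the authors' deposited table. Mirlet7b, lowest in kidney and heart, was here the nearest of its set to 0. MicroRNAs of epithelial and sensory cells had brain values of like size. Of Mir96, Mir182, Mir183, Mir141, Mir200a, Mir200b, Mir200c and Mir429, looked at after the values were seen, 8 of 8 were negative in the authors' deposited table, from -0.66 for Mir96 to -0.27 for Mir429, with a median of -0.51. None had an unadjusted p below 0.05 by DESeq2 there. Their summed level corresponds to 831277 normalized counts (negative side) and 578022 (positive side), and its part in the members' brain values was not tested. The summed family corresponds to 3680054 normalized counts (negative side) and 2554103 (positive side).

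In liver the values were small beside their errors. Mirlet7b was lowest, at -0.82 (SE 0.61), and Mirlet7i highest, at 0.06 (SE 0.30), in the authors' deposited table. The sets were 0.01 apart, between Mirlet7c-2 at -0.18 (SE 0.49) and Mirlet7g at -0.17 (SE 0.33), in the authors' deposited table. No 95% interval of a liver member left out 0. Relative depth went with the sides in liver: size factors recovered from the deposited means were 1.45, 1.54 and 2.15 on the negative side and 0.50, 0.60 and 0.73 on the positive side. Pancreas microRNAs had large fold changes with large errors in liver, where 4 of 4 were positive in the authors' deposited table. They stood there at 6.55 for Mir217 (SE 2.65), 6.52 for Mir216a (SE 2.35), 5.78 for Mir216b (SE 3.93) and 5.42 for Mir375 (SE 1.78). The authors' deposited table gives 3 of them no p-value. Their summed level, 0.0439% of the liver total, corresponds to 308 normalized counts (negative side) and 16339 (positive side). Whether 1 or more libraries of the positive side hold these reads cannot be told from the means. The part of depth and of these microRNAs in the members' liver values was not tested. In kidney the size factors overlapped, at 0.79, 1.02 and 1.12 on the negative and 0.69, 1.27 and 1.33 on the positive side.

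Spleen gave another pattern. Mirlet7g, Mirlet7b, Mirlet7i and Mirlet7a-1 lay within 0.04 of 0, with standard errors of 0.21 to 0.29, in the authors' deposited table. Mirlet7c-2, however, had a log2 fold change of 0.61 (SE 0.26; DESeq2 adjusted p 0.988) in the authors' deposited table, which corresponds to 26810 normalized counts on the positive and 17518 on the negative side. Mirlet7c-1, with the same mature strand, stood at -0.29 (SE 0.28), and Mirlet7a-1, with the same 3p strand as Mirlet7c-2, at -0.04 (SE 0.22), in the authors' deposited table. The let-7c copies thus differed by 0.91 in spleen and 0.28 in liver, against at most 0.07 in brain, heart and kidney. The let-7a copies differed by at most 0.11 in any organ.

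Kidney and spleen are set side by side here on the assumption of a shared numerator, and with the spleen sign turned. For the 6 precursors with G at positions 11 and 12, the log2 fold change in kidney minus that in spleen ran from -2.61 for Mirlet7b (combined SE 1.20) to -1.15 for Mirlet7a-2 (combined SE 0.58). With the spleen sign turned it ran from -2.63 for Mirlet7b to -1.01 for Mirlet7c-2, and Mirlet7c-2 moved the most, from -2.24. For the other 4 it ran from -0.41 for Mirlet7g (combined SE 0.40) to -0.08 for Mir98 (combined SE 0.41), and with the spleen sign turned from -0.79 for Mirlet7f-2 to -0.17 for Mirlet7i. These combined errors treat the organs as independent although they come from the same mice. The wild-type kidney group holds 1 library of batch 2, while the deficient kidney group and both spleen groups hold 0. The part of batch in these differences was not tested. The differences were not tested, since the contrast was known when the members were chosen.

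The neighbours on the primary transcript did not all have the values of let-7. At the chromosome 9 locus in kidney, Mirlet7a-2 at -1.28 lay between Mir100 at 0.17 (SE 0.31) and Mir125b-1 at -0.89 (SE 0.45) in the authors' deposited table. At the chromosome 16 locus, Mirlet7c-1 at -1.62 lay between Mir99a at 0.24 (SE 0.35) and Mir125b-2 at -0.93 (SE 0.47) in the authors' deposited table. The pair on chromosome 17 next to Mirlet7e, which is listed at 0, gave 0.02 for Mir99b and -1.77 for Mir125a in kidney in the authors' deposited table. MiR-125 is known to share targets with let-7, Lin28 among them, and miR-99 and miR-100 to target Mtor. None of the 6 partners passed an adjusted p of 0.05 by DESeq2 in any organ in the authors' deposited tables. Below an unadjusted p of 0.05 those tables list Mir125a in brain, heart and kidney, Mir125b-1 in brain, kidney and liver, and Mir125b-2 in kidney.

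**Figure D4:**
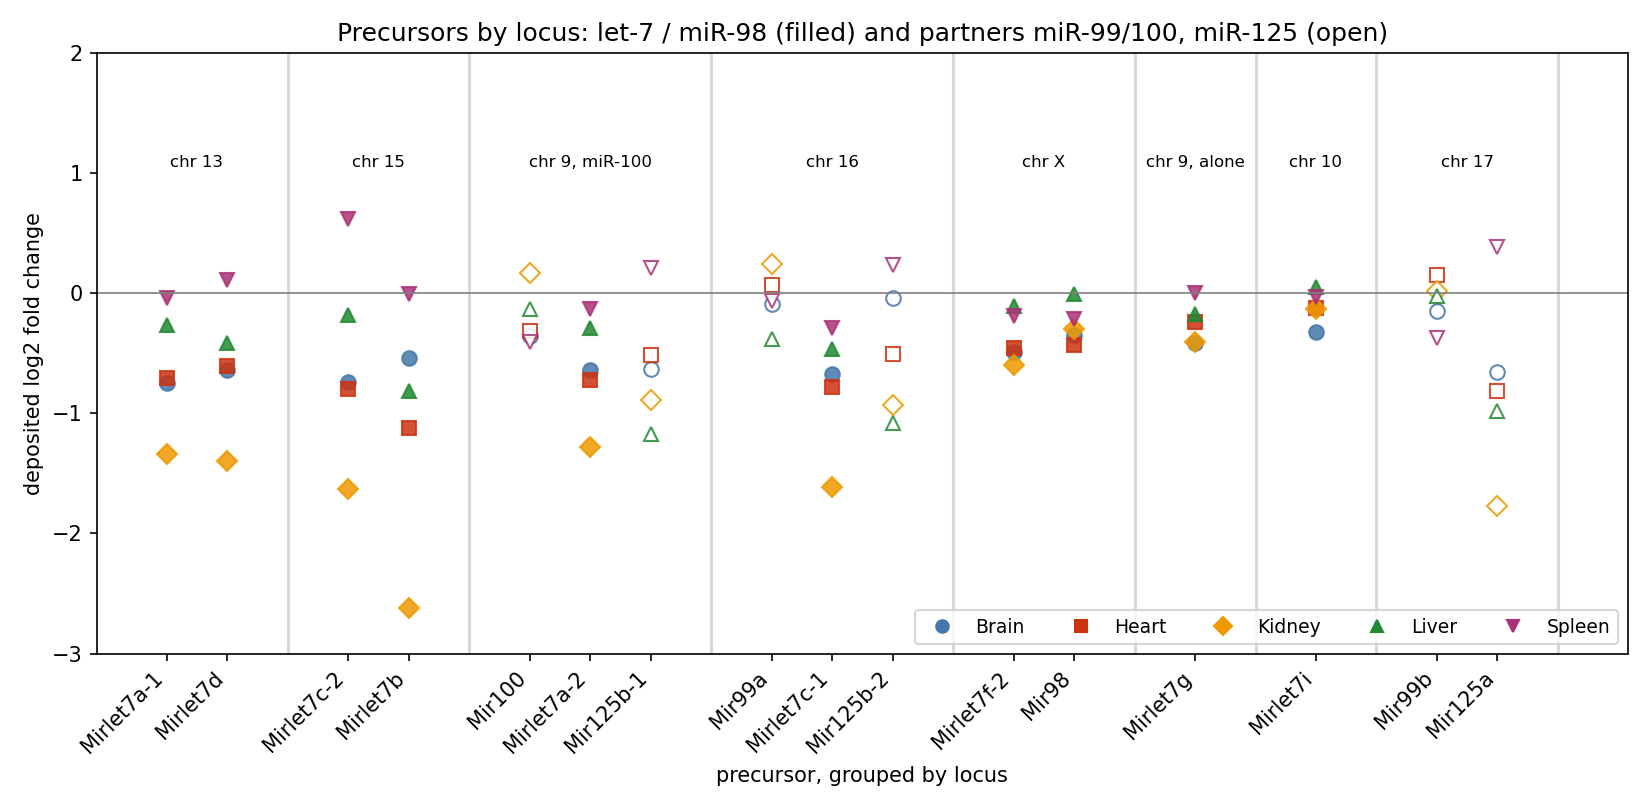
Deposited log2 fold change (y axis) of the let-7 and miR-98 precursors (filled) and of the miR-99/100 and miR-125 precursors next to them (open), grouped by locus, with 1 point per organ. At the chromosome 9 and 16 loci in kidney, Mirlet7a-2 and Mirlet7c-1 lie at -1.28 and -1.62 while Mir100 and Mir99a lie at 0.17 and 0.24.

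Members of 1 locus were not always alike either. On chromosome 15, Mirlet7b and Mirlet7c-2, which lie in the same noncoding transcript, stood at -2.62 and -1.63 in kidney, -0.82 and -0.18 in liver, and -0.01 and 0.61 in spleen in the authors' deposited tables. On chromosome 13, Mirlet7a-1 and Mirlet7d stood at -1.34 and -1.40 in kidney and -0.71 and -0.60 in heart in the authors' deposited tables. On chromosome X, Mirlet7f-2 and Mir98 stood at -0.60 and -0.30 in kidney and -0.46 and -0.43 in heart in the authors' deposited tables. The size of the difference between neighbours in kidney was 0.99 on chromosome 15, 0.30 on chromosome X and 0.06 on chromosome 13, beside 0.05 for the let-7a copies and 0.01 for the let-7c copies. In spleen the chromosome 15 neighbours differed by 0.62, less than the 0.91 of the let-7c copies. The copies share their 5p strand, and how its reads were assigned is not given in the sources used here.

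Whether G at positions 11 and 12 goes with the sign outside the family was described over other microRNAs with a mean of at least 10 and a RefSeq mature sequence. In kidney 46 precursors with such a strand on either arm had a median log2 fold change of -0.23, with 67.4% negative, and 296 without it had 0.03, with 48.6% negative. In heart 46 had a median of -0.12, with 71.7% negative, and 287 without had -0.02, with 52.3% negative. The other organs did not repeat this. In brain the medians were 0.06 with and 0.01 without, and 41.4% against 49.5% were negative. In spleen they were 0.00 and -0.02, with 47.6% against 54.6% negative, and in liver -0.05 and 0.00, with 52.4% against 50% negative. This property was picked after the members' values were seen, and the arm that gave a precursor's reads is not known from the tables.

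The let-7k precursor Mir7k, which has the let-7 seed, carries U9G, A17G and A19G and keeps G at positions 11 and 12, was rare enough for its reads in each library to be recovered from the deposited means. In brain, from 282 reads, the negative side had normalized counts of 64.2, 74.3 and 78.8 and the positive side 14.0, 29.7 and 43.8. The sides did not overlap in brain, and their means of 72.4 ± 7.46 and 29.2 ± 14.9 (SD, n = 3 each) differed 2.48-fold. In heart it had 14.9, 18.7 and 31.5 normalized counts on the negative and 4.65, 6.61 and 17.3 on the positive side, which overlap. In kidney the negative side had 16.1, 25.5 and 103 normalized counts and the positive side 14.3, 25.1 and 29.0.

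A single kidney library of the negative side thus stood at 103, and the other 2 lay within the range of the positive side. With it the log2 ratio of the sides for Mir7k was -1.08, and without it 0.13. Whether the members had the same high library could not be read from their means. Kidney standard errors ran from 0.53 to 1.16 for let-7a, b, c and d precursors and from 0.30 to 0.40 for the other members. The part of a single library in them was not tested. In liver the positive side had the higher mean, and the sides overlapped, with 2.75, 7.42 and 10.4 normalized counts on the negative and 9.60, 14.98 and 16.003 on the positive side. In spleen they overlapped, with 8.73, 9.05 and 17.2 on the negative and 2.69, 6.37 and 15.8 on the positive side. Mir7k was chosen for this account after its values were seen, and no adjusted p of it was below 0.05 by DESeq2 in the 4 organs where the authors' deposited tables give one. Unadjusted, only brain was below 0.05, at 0.0211 in the authors' deposited table.

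**Figure D5:**
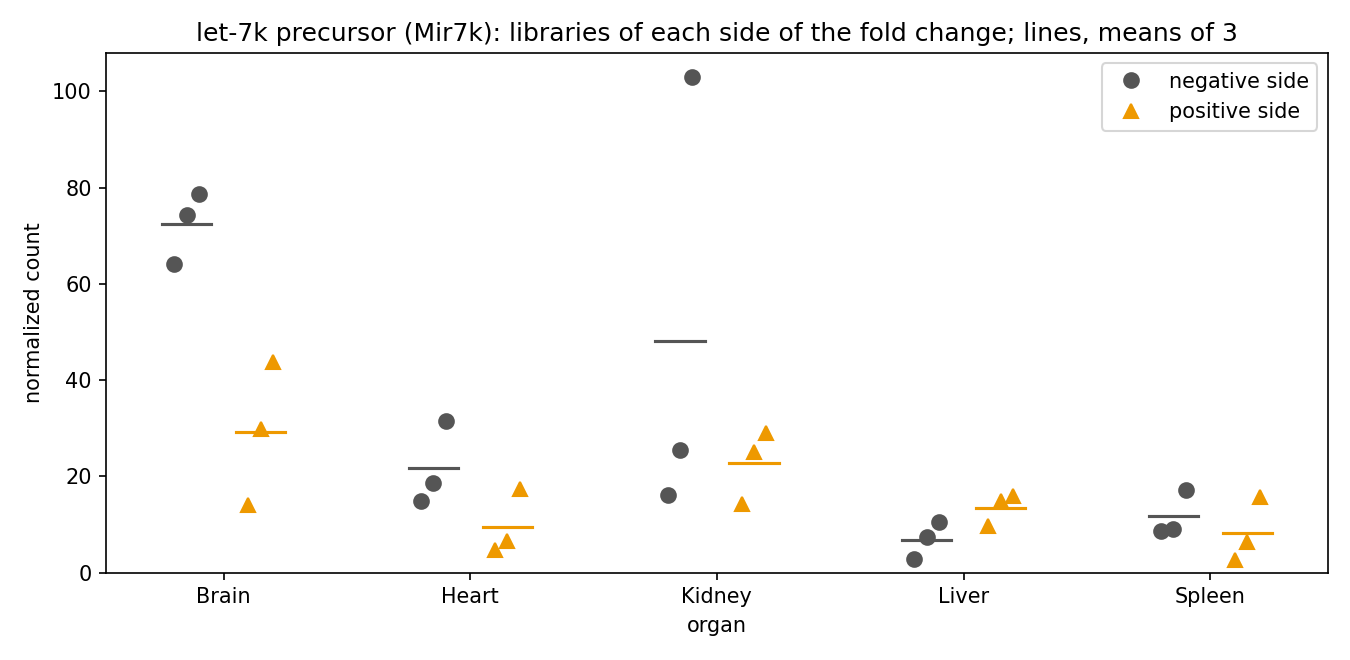
Normalized count of the let-7k precursor Mir7k (y axis) in each recovered library of the 5 organs, for the negative side (grey circles) and the positive side (orange triangles) of the deposited fold change, with lines at the means of 3 libraries. The sides are apart in brain, and in kidney 1 library of the negative side stands at 103 while the other 5 lie between 14.3 and 29.0.

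The remaining relatives had mostly positive values. Mir1961, with the let-7 seed and G12U, U14A and U16A, had recovered counts of 8.01, 14.1 and 20.3 on the negative and 5.78, 10.96 and 13.5 on the positive side in brain. Its log2 fold changes were -0.48 in brain, 0.23 in heart and 0.79 in kidney, liver and spleen, each within its standard error except in spleen (0.76), in the authors' deposited tables. In the authors' deposited tables Mir7j, with a changed seed, had a log2 fold change of 1.07 in spleen (SE 0.35; DESeq2 unadjusted p 0.0019, adjusted p 0.988). It stood at 0.62 in kidney, 0.41 in heart, 0.40 in liver and -0.40 in brain there, none with an unadjusted p below 0.05 by DESeq2.

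Among 316 other features with a mean of at least 10 in every organ, those nearest to the members' median contrast over the 5 organs were Mir320, Mir1198, Mir669c, Mir574 and Mir150. Their root mean square difference from it was 0.29 for Mir320 and 0.35 for Mir150. Mir320 had log2 fold changes of -0.96 in kidney, -0.40 in heart, -0.10 in brain, -0.17 in liver and -0.04 in spleen in the authors' deposited tables. By level over the organs the nearest were Mir6911, Mir671, Mir186, Mir29a and Gm54609. Mir29a, the most abundant of these, made up 2.41% in brain, 1.77% in spleen, 1.41% in heart, 1.27% in liver and 1.11% in kidney.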

How the data were processed

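Small RNA libraries (NEXTflex kit) from 5 organs of 6 mice were counted with featureCounts (Subread 2.0.3) on GRCm39 and went through DESeq2, as the submitters' processing notes list (per the labels). Which aligner, annotation, multi-mapping rule and model were used is not given in the sources used here. Each organ's table, as the authors deposited it, has 2195 rows, of which 1 has no name, held at most 1.82e-05% of a total and was left out. The deposited mean is a signal (counts over size factors, averaged), the fold change and its standard error are log2 values, the Wald statistic is a score, and p-value columns, raw and adjusted, follow, per the file headers. Unused columns with values per sample numbered 0.

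Members, lists and comparisons were chosen with earlier results of these data known. Named features are the members, let-7 symbols and seed relatives, 6 cluster partners, and the 5 nearest features by contrast and by level. Shares are means over an organ's summed means. Intervals are the fold change ± 1.96 standard errors. Side levels take the deposited fold change as the ratio of side means, and for Mir7k and Mir1961 the ratio recovered from reads differed from it by at most 0.06. Coefficients of variation are the standard error times ln 2 and the square root of 1.5. Size factors were found from means under 1 (relative tolerance 1e-11), which explained all 227 to 355 low means of an organ. Mir7k and Mir1961 were split into whole reads (relative tolerance 1e-14, within 0.5 of the deposited log2 fold change), with 1 solution each. Steps were tested on simulated data. There the split into reads was tried only with fewer expected reads per library than Mir7k had in brain or in its high kidney library. Python 3.11.15, numpy 2.4.6, pandas 2.3.3 and scipy 1.17.1 were used. Sequences are RefSeq's, matched by symbol for 10 of 10 members. Alternatives changed the zero point, the weighting of members and copies, the p adjustment and the total. Replicates are separate mice, and 3 per genotype limit precision. Single features with a mean near 10 rest on few reads.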

Additional observations from a re-analysis of the deposited data

How the results depend on the processing

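The members' median kept its negative sign in all 20 alternatives run on it. These combine the same deposited fold changes, of members chosen with the sign known, so the sign was all but fixed beforehand. In spleen the value ran from -0.04 to -0.02, beside a median standard error of 0.24. In every organ and alternative 0 members passed an adjusted p of 0.05, the smallest adjusted p being 0.246 by DESeq2. Of 45 such settings 5 moved a value beyond its spread. In kidney the mean of the members weighted by inverse squared standard error was -0.71, against a median of -1.31, its weights favouring members with small errors. Without the most abundant feature outside the family, the family's share was 16.2% in heart, 13.1% in kidney and 16.5% in spleen (all without Mir143) and 9.53% in liver (without Mir122), because the total is smaller. Without its highest library, an alternative chosen after seeing the data, the let-7k log2 ratio was 0.13 in kidney, where all 6 libraries gave -1.08, and ranged from -1.25 in brain to 0.84 in liver. No paired analysis was possible because the tables hold no values per library, and members could not be refitted without a library for the same reason. Depth per library is known only relative to the other libraries of an organ.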
